A study of Mus musculus with 3 samples.

Results

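Perineuronal net core components, the 10 genes Acan, Bcan, Ncan, Vcan, Hapln1, Hapln2, Hapln4, Tnr, Tnc and Has3, were examined in RNA from mouse medial prefrontal cortex. They were taken by name as lectican, link protein, tenascin and hyaluronan synthase genes, and all 10 were found among the 46073 Ensembl gene identifiers of the RNA table. The tissue came from untreated C57BL/6 mice aged 3 months, and the series holds 3 samples, 1 each of RNA, input DNA and DNA enriched for methylated cytosine. The design text states 3 RNA replicates, but the table holds 1 value per gene, in FPKM (fragments per 1000 bases of transcript and per 1000000 mapped fragments). Values below are therefore without errors, and differences between genes could not be set against any spread between replicates. The methylation data were not analysed here, and no second condition was available for comparison.

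Perineuronal nets are lattices of extracellular matrix that enclose the cell body and proximal dendrites of some neurons, in cortex mainly fast-spiking interneurons that make parvalbumin. Hyaluronan synthases extrude the hyaluronan backbone at the cell surface, lecticans (chondroitin sulfate proteoglycans) bind to it at their N-terminal end, and link proteins stabilise that contact. Tenascin-R joins the C-terminal ends of the lecticans. The nets form late in postnatal development and are known for limiting plasticity in the adult cortex. In bulk tissue, fewer cells of a type and less RNA per cell cannot be told apart.

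Because the series is about DNA methylation, the CpG sites in reference promoters were set beside the RNA levels. RefSeq windows (build GRCm38.p6, the assembly also called mm10), from 250 bases before to 50 bases after an annotated start, were given for 8 of the 10 genes. The 250 bases before the start are shown for the lecticans Acan and Bcan, which had the most CpG sites among these windows but RNA levels far apart, and for Hapln2 and Tnr, which had few CpG sites. Each sequence is reference sequence, read 5′ to 3′ toward its gene, with every CpG in capitals. The start used lies inside the annotated span of the gene by 1819 bases for Bcan, 515 for Vcan, 107 for Hapln1 and 79 or fewer for the other members with a window, so starts further upstream are not covered.

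Acan (chr7:79052976-79053225, plus strand): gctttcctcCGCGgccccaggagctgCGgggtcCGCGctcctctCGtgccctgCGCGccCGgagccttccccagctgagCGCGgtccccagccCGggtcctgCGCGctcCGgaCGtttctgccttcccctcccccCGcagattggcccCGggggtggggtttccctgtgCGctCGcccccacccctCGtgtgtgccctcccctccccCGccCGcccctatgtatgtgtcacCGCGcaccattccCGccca

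Bcan (chr3:88000357-88000606, minus strand): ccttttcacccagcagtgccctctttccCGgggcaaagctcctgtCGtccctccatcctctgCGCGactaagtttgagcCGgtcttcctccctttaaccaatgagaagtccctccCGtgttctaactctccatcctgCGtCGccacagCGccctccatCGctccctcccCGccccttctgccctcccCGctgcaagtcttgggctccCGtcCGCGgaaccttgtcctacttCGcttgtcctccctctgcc

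Hapln2 (chr3:88027512-88027761, minus strand): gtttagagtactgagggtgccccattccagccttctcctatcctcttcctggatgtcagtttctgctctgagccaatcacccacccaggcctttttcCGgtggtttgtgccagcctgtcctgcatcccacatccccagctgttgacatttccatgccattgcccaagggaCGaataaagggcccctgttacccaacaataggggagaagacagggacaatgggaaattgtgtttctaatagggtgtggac

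Tnr (chr1:159523519-159523768, plus strand): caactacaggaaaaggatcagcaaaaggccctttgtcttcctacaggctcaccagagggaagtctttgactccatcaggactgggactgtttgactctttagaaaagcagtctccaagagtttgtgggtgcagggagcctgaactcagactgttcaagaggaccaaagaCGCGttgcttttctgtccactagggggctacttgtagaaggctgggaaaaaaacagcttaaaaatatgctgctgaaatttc

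The printed stretch held 26 CpG sites for Acan and 16 for Bcan, against 2 for Hapln2 and 2 for Tnr. Over the whole window of 300 bases Acan had 31 CpG sites, a number that 10.6% of all 32851 RefSeq windows reached, and its GC content was 74.0%. Bcan had 24 CpG sites, reached by 20.0% of windows, and a GC content of 64.0%. Vcan had 12 and Ncan 9 CpG sites, Hapln1 and Tnr 3 each and Hapln2 2, against a median of 7 over all windows. Tnc had a pair of annotated windows that overlap each other, with 10 and 16 CpG sites.

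A window was called CpG-rich at a GC content of 50% or more and a ratio of observed to expected CpG of 0.6 or more. Of the members with a window, Acan, Bcan and the Tnc window with 16 CpG sites passed, and 33.5% of all windows did. That share is by window. By gene, 8251 protein-coding genes had a CpG-rich window and 8313 had not, which is the base nearer to the members. Across protein-coding genes of the table, the 8251 with a CpG-rich window had a median of 9.12 FPKM, and 87.6% of them were at 1 FPKM or more. The 8313 with other windows had a median of 0.0611 FPKM, and 30.0% of them reached 1 FPKM. Bcan, at 67.3 FPKM, stood with most CpG-rich genes. On the deposited scale Acan and Tnc, both under 1 FPKM, stood with the CpG-rich genes below that level. The rescaling over nuclear protein-coding rows described below put both above 1. Ncan, Vcan, Hapln1, Hapln2 and Tnr were all above 1 FPKM without a CpG-rich window. The letters TATAAA, searched on both strands, were present in the Ncan window and both Tnc windows and in 13.6% of all windows. These are properties of the reference sequence, and no methylation level was measured for them here.

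**Figure D1:**
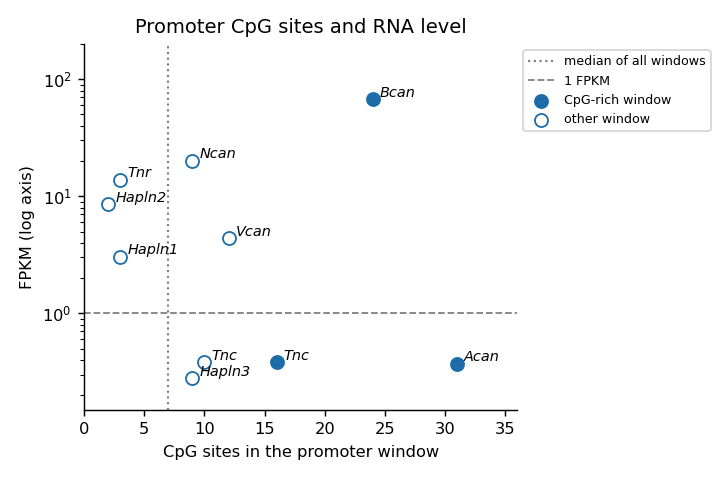
RNA level in FPKM (log axis) against the number of CpG sites in each RefSeq promoter window, with 1 point per window, filled where the window is CpG-rich. Acan, with 31 CpG sites, lies at 0.370 FPKM and Bcan, with 24, at 67.3 FPKM. Hapln3, the gene next to Acan, is included, with a start 2155 bases inside its annotated span.

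The net components ranged over 2 orders of magnitude, with Bcan highest and Has3, Acan and Tnc lowest. With 1 FPKM as the floor for detection, 7 of the 10 members were detected. Over all rows 31.5% were detected, and over protein-coding rows 58.6% were, so that the members' count is near the share of protein-coding genes in general. The median of the members was 6.45 FPKM, against 0.0414 FPKM over all rows, 2.59 FPKM over the 20635 protein-coding rows and 9.86 FPKM over the detected protein-coding rows. The floor matters for the 3 low members, which lay between 0.343 and 0.380 FPKM. The values were also rescaled to sum to 1000000 over nuclear protein-coding rows. Tnc was then at 1.19, Acan at 1.15 and Has3 at 1.07, so that 10 of 10 passed the same floor. Of protein-coding genes, 65.7% were higher than Has3 and so passed it too.

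**Figure D2:**
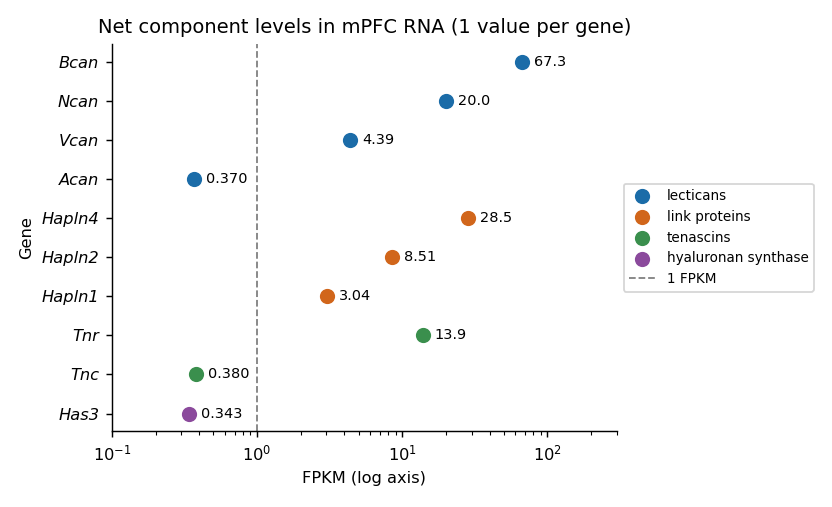
Level of each net component in FPKM (log axis), grouped by family, with 1 value per gene and a dashed line at 1 FPKM. Bcan, at 67.3 FPKM, is highest, and Acan, Tnc and Has3 lie below the line.

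The descending order was Bcan, Hapln4, Ncan, Tnr, Hapln2, Vcan, Hapln1, Tnc, Acan and Has3. The widest step in this order was between Hapln1 and Tnc, which were 7.99-fold apart. The other neighbours in the order were between 1.03-fold and 2.36-fold apart. Whether neighbours differ beyond the spread of replicates cannot be told from 1 value per gene. Bcan alone held 45.9% of the summed FPKM of the 10 genes, and Hapln4 held 19.4%.

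Among the lecticans, Bcan was highest, followed by Ncan and Vcan, and Acan was under the floor. Bcan (ENSMUSG00000004892, chromosome 3, 87987531 to 88002175) encodes brevican, the shortest lectican core protein, which is abundant in adult brain. It was at 67.3 FPKM, and 4.48% of protein-coding genes were higher. Ncan (ENSMUSG00000002341, chromosome 8, 70093085 to 70120863) encodes neurocan, a lectican known for its abundance in the developing brain. It was at 20.0 FPKM, 3.36-fold below Bcan. Vcan (ENSMUSG00000021614, chromosome 13, 89655309 to 89743027) encodes versican, whose splice forms differ in the region that carries chondroitin sulfate. It was at 4.39 FPKM, 15.3-fold below Bcan, and the value covers all its splice forms together.

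Acan (ENSMUSG00000030607, chromosome 7, 79053226 to 79115099) encodes aggrecan, the lectican most often used to mark perineuronal nets. It was at 0.370 FPKM, with 65.3% of protein-coding genes higher. Bcan was 182-fold, Ncan 54.2-fold and Vcan 11.9-fold above it. Pvalb, the marker of the interneurons that nets mostly enclose, was at 39.8 FPKM in the same RNA, 108-fold above Acan. All 10 listed fast-spiking interneuron markers were detected, from Lhx6 at 5.14 FPKM to Gad1, which all GABA neurons share, at 127 FPKM. The list was chosen with earlier results of these data known. Of protein-coding rows 58.6% were detected.

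The link proteins were all detected, against 58.6% of protein-coding rows, in the descending order Hapln4, Hapln2 and Hapln1. Hapln4 (ENSMUSG00000007594, chromosome 8, 70083529 to 70090862), also called Bral2, encodes a brain link protein of perineuronal matrix. At 28.5 FPKM it was the second highest of the 10 genes. Hapln2 (ENSMUSG00000004894, chromosome 3, 88020558 to 88027511), also called Bral1, encodes a link protein known from the matrix at nodes of Ranvier of myelinated axons. It was at 8.51 FPKM, 3.35-fold below Hapln4. Hapln1 (ENSMUSG00000021613, chromosome 13, 89540529 to 89611832), also called Crtl1, encodes the link protein of cartilage, without which nets are poorly formed in mice. It was at 3.04 FPKM, 9.37-fold below Hapln4 and 8.23-fold above Acan. Hapln3, a relative outside the 10 genes, was at 0.279 FPKM.

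The tenascins differed 36.5-fold. Tnr (ENSMUSG00000015829, chromosome 1, 159523729 to 159931729) encodes tenascin-R, the crosslinker of lecticans in adult nets, and was at 13.9 FPKM. Tnc (ENSMUSG00000028364, chromosome 4, 63959785 to 64047015) encodes tenascin-C, known mainly from developing and injured tissue, and was at 0.380 FPKM. The relatives Tnxb and Tnn were at 0.469 and 0.0497 FPKM, so that on the deposited scale Tnr alone of the 4 tenascins measured passed the floor. After rescaling without mitochondrial rows Tnxb passed it too, and over nuclear protein-coding rows so did Tnc. No hyaluronan synthase was detected on the deposited scale. Has3 (ENSMUSG00000031910, chromosome 8, 106870242 to 106882902) was at 0.343 FPKM, its relative Has1 at 0.256 FPKM and Has2 at 0.0502 FPKM. On the log2(FPKM + 1) scale, all 10 of the pairs that can be formed within the lecticans, link proteins and tenascins were at least 2-fold apart. Of all pairs of protein-coding genes 69.6% were that far apart, and 65.7% of those in which both genes were detected. The 10 pairs share genes and are not independent, so nothing was read from their count.

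**Figure D3:**
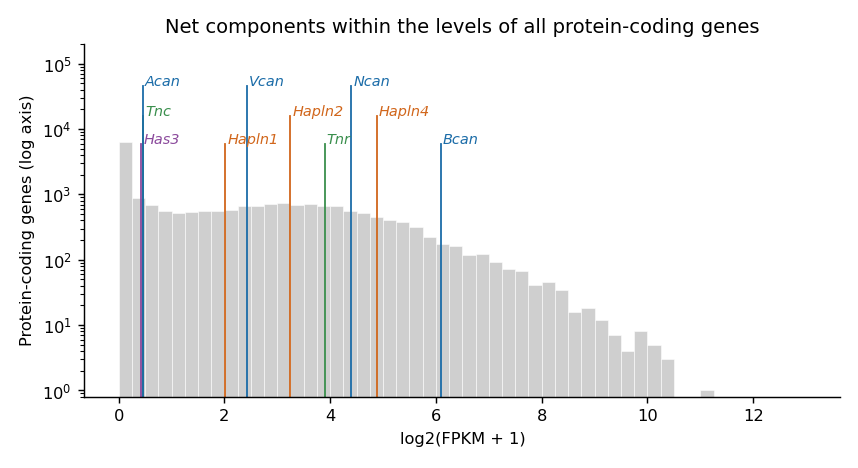
Number of protein-coding genes (log axis) by log2(FPKM + 1), in grey, with a coloured line at the level of each net component. Bcan lies in the upper tail, 6 members spread over the body of the distribution, and Acan, Tnc and Has3 lie together near the low end.

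Each lectican gene lies beside a link protein gene in the mouse genome, and the levels of these neighbours were compared. No RefSeq gene lay wholly between the neighbours in any of the 4 cases, and the gap was 18382 bases for Bcan and Hapln2, 2222 for Ncan and Hapln4, 43476 for Vcan and Hapln1 and 1927 for Acan and Hapln3 (chromosome 7, 79117027 to 79133173). Bcan and Hapln2 are transcribed in the same direction, while Vcan and Hapln1, and Acan and Hapln3, are transcribed toward each other. Bcan was 7.90-fold above Hapln2. Ncan was 0.703 times Hapln4, Vcan 1.44 times Hapln1 and Acan 1.32 times Hapln3. Ordered by the lectican, the link protein neighbours were at 8.51, 28.5, 3.04 and 0.279 FPKM, so that the lowest lectican lay beside the lowest link protein gene, and Bcan and Ncan were in the opposite order to their neighbours.

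On the log2(FPKM + 1) scale, 1 of these 4 pairs was at least 2-fold apart. Of 19776 pairs of adjacent protein-coding genes in the genome 58.5% were, and of the 8374 in which both genes were detected 64.7% were. With 4 pairs, of which Acan and Hapln3 are both under the floor where the scale compresses ratios, nothing particular to the net genes was read from this count.

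**Figure D4:**
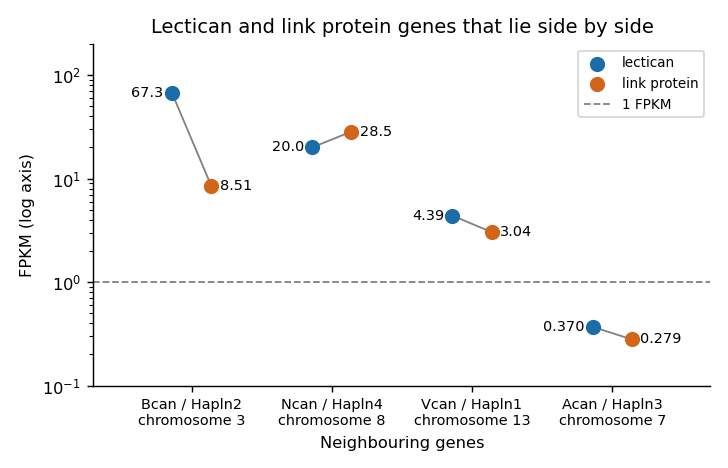
FPKM (log axis) of each lectican gene and of the link protein gene beside it, joined by a line, with 1 value per gene. Bcan is 7.90-fold above Hapln2, and the genes of the other 3 pairs are within 1.44-fold of each other.

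Reads from overlapping genes cannot be told apart where counting ignores strand, and the strand setting is not given in the sources used here. RefSeq lists no gene that overlaps Bcan, Hapln2, Hapln4 or Has3. Acan overlaps the non-coding gene Gm26633, listed at 0.0518 FPKM, and Tnc overlaps 8030451A03Rik, at 0.0133 FPKM. The genes that overlap Vcan, Hapln1 and Ncan and have a value were at 0.139 FPKM or lower. Gm31348, which overlaps Tnr, had no value by that name.

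The genes around the net components were described with lists that were chosen with earlier results of these data known. Over 7 such lists the median was 3.62 FPKM, and 54 of 75 measured genes were detected, to be read against the 58.6% of protein-coding rows that were. All 8 of the other proteoglycans were detected, and their median was 19.1 FPKM. The testican gene Spock2, at 115 FPKM, and Cspg5, which encodes neuroglycan C, at 103 FPKM, were 1.71-fold and 1.54-fold above Bcan. Spock1 followed at 55.2 FPKM, and Bgn, at 8.35 FPKM, and Cspg4, a marker of oligodendrocyte precursors, at 1.66 FPKM, were lowest.

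Genes that build chondroitin sulfate chains had a median of 5.74 FPKM, and 11 of 12 were detected, against 58.6% of protein-coding rows. The glucuronosyltransferase gene B3gat3, which completes the linker to the core protein, was highest at 62.0 FPKM, followed by the chain-polymerising genes Chpf2 at 31.9 and Chpf at 19.4 FPKM. Their polymerase relatives Chsy3 and Chsy1 were lowest at 2.58 and 0.812 FPKM. Genes for sulfation and epimerisation had a median of 2.86 FPKM, and 8 of 12 were detected, near the share of protein-coding rows. Papss1, which makes the sulfate donor, was at 24.9 FPKM. The 4-O-sulfotransferase gene Chst11 was at 8.52 FPKM and Chst15, which adds a further sulfate to 4-sulfated chains, at 8.13 FPKM. The 6-O-sulfotransferase gene Chst3 was at 0.324 FPKM, 26.3-fold below Chst11. Chst13, also a 4-O-sulfotransferase gene, was lowest of the list at 0.0274 FPKM. Chst12 and Chst7, a further pair of 4-O and 6-O enzymes chosen after their values were seen, were at 7.05 and 0.425 FPKM. With Chst13 below both Chst3 and Chst7, the 4-O genes were not all above the 6-O genes.

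Genes that cleave lecticans or hyaluronan were the least widely detected of the lists apart from the family relatives, at 7 of 15. At the same floor 58.6% of protein-coding rows were detected, and the count of this list moved with floor and scale. The median of the list was 0.874 FPKM. The hyaluronidase gene Hyal2 was highest at 5.76 FPKM, the aggrecanase gene Adamts4 was at 3.62 FPKM and Cemip, a hyaluronan-degrading protein gene, at 3.30 FPKM. The aggrecanase gene Adamts5 was at 0.139 FPKM, 26.0-fold below Adamts4, and Mmp3 was listed at 0. After rescaling without mitochondrial rows 12 of 15 passed the floor of 1, a count for which no background share is given. The protease inhibitors had a median of 9.84 FPKM, and 4 of 5 were detected. Timp2 was at 66.0 FPKM, followed by Timp4 at 11.2 and Timp3 at 9.84 FPKM, while Reck was at 2.07 and Timp1 at 0.429 FPKM.

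Receptors and ligands of the net had a median of 21.6 FPKM, and 16 of 18 were detected, against 58.6% of protein-coding rows. The neuronal pentraxin receptor gene Nptxr was highest at 154 FPKM, followed by Nptx1, a pentraxin of synapses, at 63.1 FPKM and Cntn1, a contactin that binds tenascin-R, at 50.8 FPKM. Ptprs, a phosphatase that binds chondroitin sulfate, was at 47.0 FPKM and was chosen after its value was seen. Cd44 and Hmmr, which both encode hyaluronan receptors, were lowest of this list at 0.522 and 0.288 FPKM, and hyaluronan receptors were not examined as a class. The family relatives, Hapln3, Has1, Has2, Tnn and Tnxb, had a median of 0.256 FPKM, and 0 of 5 were detected on the deposited scale, against 1 of 5 after rescaling without mitochondrial rows.

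**Figure D5:**
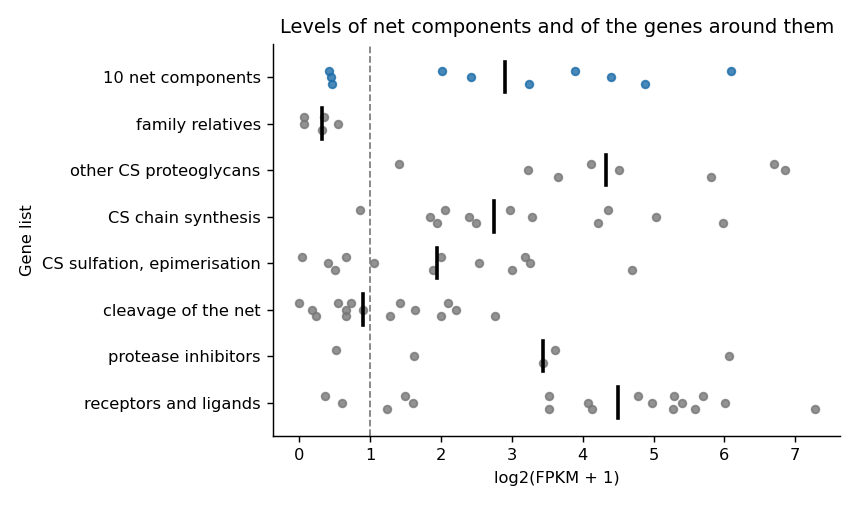
Levels as log2(FPKM + 1) of the net components, in blue, and of 7 lists of genes around them, in grey, with 1 point per gene, a black bar at each list's median and a dashed line at 1 FPKM. The net components run from 0.343 FPKM to 67.3 FPKM, with genes of the other lists both below and above that range, and the family relatives lie below the line.

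The marker lists are of cell types and none is of a cortical region, so they do not test the tissue label. Excitatory neuron markers had a median of 199 FPKM, with Tbr1 at 20.7, Camk2a at 701 and Nrgn at 874 FPKM among them. Every marker on the 9 cell type lists was detected, against 58.6% of protein-coding rows. Ttr, on the choroid plexus and ependyma list, was at 566 FPKM. The medians were 55.2 FPKM for oligodendrocytes, 48.6 for astrocytes, 17.4 for microglia, 15.5 for fast-spiking interneurons, 8.57 for choroid plexus and ependyma, 8.34 for endothelial and mural cells, 5.50 for oligodendrocyte precursors and 3.20 for meningeal cells and fibroblasts. Bcan was above the medians of the 8 lists other than excitatory neurons, and Acan was below the lowest marker of all 9 lists, Col1a1 at 1.18 FPKM. How the RNA of each net component is divided among these cell types was not tested.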

How the data were processed

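RNA was measured in 1 sample of medial prefrontal cortex. Per the labels' protocols, libraries were made with the Illumina TruSeq RNA v2 kit. TopHat and Cufflinks, with CASAVA 1.8.2 and build mm10, are the tools that the submitters' processing notes name. What annotation was used and how strand and replicates were handled is not given here. The authors deposited FPKM values in 2 columns that were identical in 46073 of 46073 rows, counted as 1 sample. Depth is unknown. In 92 olfactory, vomeronasal and taste receptor genes of 500 to 1500 bases, FPKM times length less 204 bases, an offset chosen from the values, repeated within 0.01% at 3 levels in 16, 8 and 6 genes. Fragment counts of the members were not recovered, so no counting interval is given.

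Identifiers were matched to symbols, with 45139 rows named, and RefSeq for GRCm38.p6 gave classes, coordinates and promoter windows. The floor was 1 FPKM and the pseudocount 1. Named were all 10 members, the family relatives, and the 3 highest and 2 lowest genes of every other list of genes around the net. Some marker genes are not reported here by name. Members and lists were chosen with earlier results of these data known. Floors, scalings, pseudocounts, backgrounds and the geometric mean were varied. The list of cleavage genes held Cemip2 also under its older name, which left 15 of 16 names matched. Counting and step finding were tested on simulated data. The software was pandas 2.3.3 and numpy 2.4.6 under Python 3.11.15, with matplotlib 3.10.9 for figures.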

Additional observations from a re-analysis of the deposited data

How the results depend on the processing

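The count of detected members, 7 of 10, was 7 at a floor of 0.5 FPKM and 5 at 5 FPKM. With a floor of 1 after rescaling to a sum of 1000000, alternatives chosen after seeing the data, it was 7 over all rows, 7 without mitochondrial rows and 10 over nuclear protein-coding rows. The background share at the floor was 31.5% of all rows, 58.6% of protein-coding rows and 50.1% of rows above 0. These shares are for 1 FPKM on the deposited scale. For the scaling over nuclear protein-coding rows, at least 65.7% of protein-coding genes passed the floor, since that share was higher than Has3. No share is given for the remaining floors and scalings, so the counts there have no like background. The geometric mean of the members was 6.11 FPKM, against their median of 6.45 FPKM. Rescaling multiplied every level by 1.27, 2.54 or 3.12, in the order given, and left ratios between genes as they were. Mitochondrial rows held 50.0% of the summed FPKM. With pseudocounts of 0.1 or none, 10 of 10 pairs within families and 1 of 4 neighbouring pairs were still at least 2-fold apart. A smaller pseudocount can only widen a difference and cannot change its sign. Only the count of neighbouring pairs could therefore have moved. With a floor of 5 FPKM the cleavage list had 1 detected gene, the chain synthesis list 6 and the sulfation list 4, and with 0.5 FPKM the cleavage list had 11. After rescaling without mitochondrial rows, and over nuclear protein-coding rows, 12 cleavage genes and 1 family relative passed the floor of 1. Weighting by protein length was not run, because no protein table was used. No replicate could be left out, since the table holds 1 value per gene. No paired analysis was possible because the series has 1 RNA sample. Depth is unknown, so the precision of the low values of Acan, Tnc and Has3 is unknown too.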

Other observations

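Otx2, a homeodomain protein that mouse parvalbumin interneurons are known to take up from outside and that the choroid plexus makes, was at 1.82 FPKM. It belongs to the list of receptors and ligands of the net and was chosen after its value was seen. Choroid plexus and ependyma markers were all detected in the same RNA (5 of 5), against 58.6% of protein-coding rows. Ttr was at 566, Folr1 at 12.5, Kcnj13 at 8.57, Foxj1 at 1.84 and Ccdc153 at 1.72 FPKM. The part of choroid plexus cells in the level of Otx2 was not tested.

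Of the fast-spiking interneuron markers, the potassium channel genes Kcnc1 and Kcnc2, which serve rapid repolarisation, were at 30.1 and 13.7 FPKM. Syt2, a calcium sensor of fast release, was at 6.34 FPKM and Cox6a2, a subunit of cytochrome c oxidase, at 7.28 FPKM. Syt2, the lowest of these 4, was 17.2-fold above Acan. These 4 were picked from the list of 10, in which Erbb4, at 6.03, and Lhx6, at 5.14 FPKM, were lower than Syt2.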
